A study of Homo sapiens with 10 samples.

Results

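The genes described here encode the subunits of the oxidative phosphorylation system, the respiratory chain and ATP synthase of mitochondria. They were taken by name: all genes called NDUF with A, B, C, S or V and a number, SDHA to SDHD, and every name that starts with UQCR, with COX and a digit from 4 to 8, or with ATP5 and a letter from A to L, together with the mitochondrially encoded subunits. The rule found 84 of 36545 genes in the tables of an interferon-beta (IFN-β) experiment and 97 of 22609 genes in those of a knockdown experiment, 98 genes in all. Of these, 83 nuclear genes were listed in both, and 13 mitochondrially encoded genes were found by these names in the knockdown tables alone. The names hold 1 gene outside oxidative phosphorylation: COX4NB, now EMC8, encodes a part of a membrane protein insertion complex and was listed in the IFN-β tables alone. COX7A2L, counted here with complex IV, has its role in the assembly of respiratory supercomplexes. A further 4 members are a pseudogene (ATP5EP2), paralogous copies (ATP5L2, UQCRHL) and a readthrough of ATP5J2 into PTCD1.

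RNA sequencing was done on human esophageal squamous cell carcinoma cell lines, established cultures labelled as grown for 5 to 10 passages. The IFN-β experiment holds 6 libraries: for each of the lines KYSE30, KYSE180 and KYSE450, an untreated culture, which the protocol says received PBS, was set against a culture kept in 1000 IU/ml IFN-β for 72 h. The knockdown experiment holds 4: in KYSE30 and in KYSE180, cells carrying the vector control were set against cells with IRF1-AS knocked down. IRF1-AS is a non-coding transcript made from the strand opposite the IRF1 gene, which encodes a transcription factor of the interferon response. The labels' protocol describes infection with lentivirus, and the knockdown sequence and the time after infection were not stated in it. Each condition of a line is 1 library, so the lines are the replicates, and values are FPKM, read counts scaled to transcript length and library size, which can be compared between genes within a library.

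The treatments and the tissue label were checked first. IFI27, an interferon-stimulated gene, stood at 1.06 to 1.72 FPKM in the untreated libraries and at 659 to 1075 after IFN-β. C5orf56, the annotated antisense gene of IRF1, went from 6.86 to 3.04 FPKM with knockdown in KYSE30 and from 1.08 to 0.948 in KYSE180. The fall was thus seen mainly in KYSE30. In KYSE180 the gene was low in both libraries, and its values cannot tell how far the knockdown went there. Squamous keratins marked KYSE180 and KYSE450 strongly but KYSE30 weakly: KRT5 stood at 2.91 FPKM in untreated KYSE30, 2346 in KYSE180 and 3355 in KYSE450. KRT14 was at 2.61, 1258 and 78.7 FPKM in the same order, and KRT6A at 4.34, 1113 and 2447. The rest of the squamous epithelial list differed less and was present in KYSE30. TP63 was at 26.05, 126 and 71.8 FPKM, SFN at 102, 281 and 168, EPCAM at 114, 142 and 207, and CDH1 at 54.1, 76.2 and 45.15. The KYSE30 libraries of the 2 experiments also stood apart from each other, with KRT5 at 117 FPKM and the interferon-stimulated gene ISG15 at 1073 in the vector control against 45.5 for ISG15 in the untreated library. Markers of other cell types were summed by list: over the 10 libraries the 4 leukocyte genes summed to 0.63 to 16.1 FPKM, the 4 fibroblast genes to 0.32 to 5.39, the 5 muscle genes to 0.35 to 5.77, the 3 endothelial genes to 0.083 to 1.18 and the 3 testis genes to 0.016 or less. The leukocyte sum was mostly CD68, a lysosomal protein of macrophages, at 1.66 and 2.5 FPKM in untreated and treated KYSE30, 8.71 and 15.8 in KYSE180 and 0.61 and 5.10 in KYSE450, while PTPRC was at 0.09 or less in every library. TNNT2 made up most of the muscle sum in KYSE180 (5.76 FPKM untreated) and COL1A1 most of the fibroblast sum in the knockdown experiment (1.66 to 5.38 FPKM). Their part in the members' values was not tested. In bulk libraries, fewer cells of a type and less RNA per cell cannot be told apart.

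Oxidative phosphorylation passes electrons from NADH through complex I, or from succinate through complex II, by way of coenzyme Q, complex III and cytochrome c to complex IV, which reduces oxygen. Complexes I, III and IV pump protons across the inner mitochondrial membrane, and ATP synthase, complex V, uses the gradient to make ATP. A few core subunits of complexes I, III, IV and V are encoded in mitochondrial DNA and all others in the nucleus, so that a working complex needs transcripts from both genomes. Complex II is encoded in the nucleus alone, and its enzyme is also part of the tricarboxylic acid cycle.

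The genes were abundant in every library. A gene was tested when it reached 1 FPKM in at least 3 of 6 libraries of the IFN-β experiment (75 of 84 members) or in 2 of 4 of the knockdown experiment (84 of 97 members, 8 of them mitochondrially encoded). The median of the tested members lay between 139 and 175 FPKM over the libraries of the IFN-β experiment, where the median of all named genes tested lay between 9.54 and 13.96. The nuclear members made up 1.68% to 2.14% of the summed FPKM in that experiment and 1.64% to 2.03% in the other. The share was lowest in KYSE30 in both experiments.

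Complex IV had the highest median among the nuclear genes in every library, and the order at the low end depended on the line. In the IFN-β experiment the median level of 12 complex IV genes was 509 to 607 FPKM over the 6 libraries, that of 14 complex V genes 191 to 251, that of 8 complex III genes 111 to 167, that of 36 complex I genes 109 to 157 and that of 4 complex II genes 75.4 to 160 FPKM. The ranges of complexes I, II and III overlapped, and the complex IV range overlapped none of the others. In KYSE30 complex II was lowest (81.2 FPKM untreated), and in KYSE180 complex III was (121 FPKM untreated, against 137 for complex I and 144 for complex II). In untreated KYSE30 the highest member was UQCRH, the hinge protein of complex III, at 1022 FPKM, and the lowest was SDHC, a membrane anchor of complex II, at 11.1 FPKM. Further extremes in the same library were COX7C (864 FPKM) and COX7A2L (97.0 FPKM) in complex IV, ATP5I (780 FPKM) and ATP5D (23.8 FPKM) in complex V, and NDUFA1 (362 FPKM) and NDUFV3 (19.4 FPKM) in complex I.

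In the knockdown experiment complex IV again had the highest nuclear median, at 110 to 130 FPKM over the 4 libraries. The ranges of complexes I (50.8 to 75.5), II (41.2 to 76.7), III (71.2 to 88.6) and V (59.2 to 90.0 FPKM) overlapped, and in the KYSE180 vector control complex V was lowest. The level of a single gene, however, depended on the experiment. Across 74 members tested in both, the rank correlation of levels was 0.595 between the untreated and the vector control library of KYSE30, against 0.908 between untreated KYSE30 and untreated KYSE180. These correlations are across genes of single libraries, which are not independent replicates, and are given as a description. ATP5E, the epsilon subunit of the ATP synthase head, was among the highest members in the first (666 FPKM in untreated KYSE30) and the lowest nuclear complex V gene in the second (16.8 FPKM in the vector control). The tables were normalized separately, so levels were compared between genes and lines within an experiment alone.

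**Figure D1:**
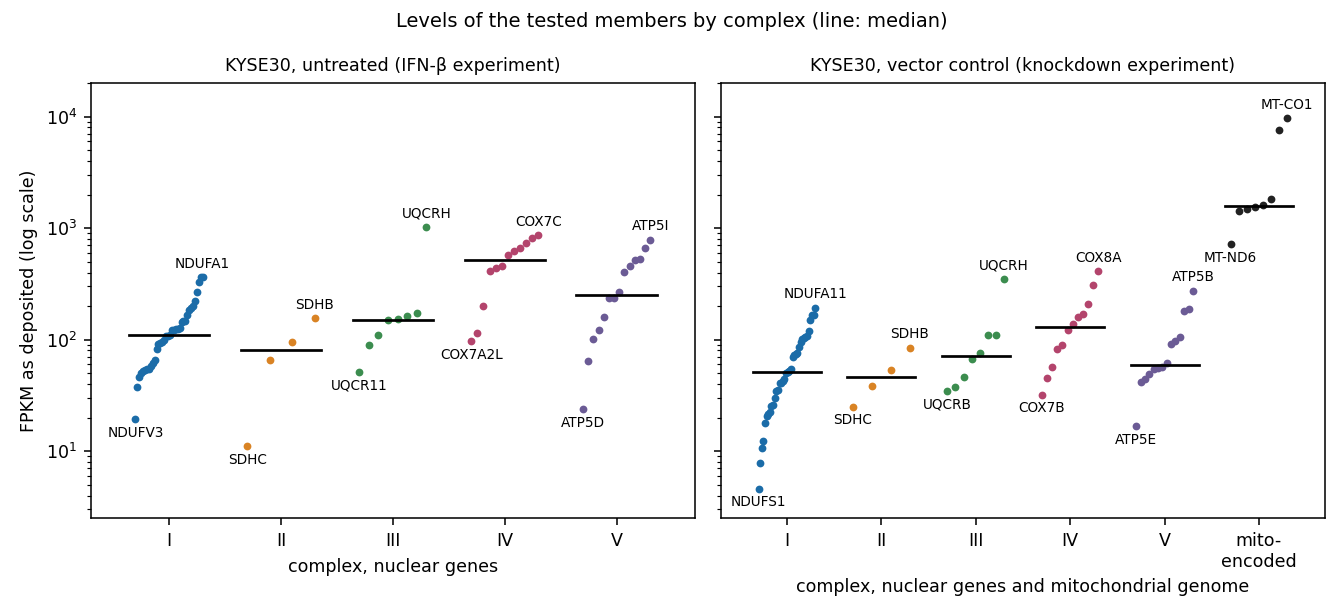
Levels of the tested members by complex in untreated KYSE30 (left) and in the KYSE30 vector control (right), as FPKM on a log scale. Each point is 1 gene, sorted within its complex, and the line is the median; complex IV has the highest nuclear median in both panels, 515 and 130 FPKM, and the 8 tested mitochondrially encoded genes stand above all medians at 716 to 9657 FPKM.

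Of the paralogous subunits, the broadly expressed form was present and the tissue-restricted form was near 0. COX4I1, COX6A1, COX6B1, COX7A2, COX7B and COX8A were tested in both experiments. COX4I2, COX6A2, COX7A1, COX7B2 and COX8C, forms known from muscle, lung or testis, did not exceed 0.37 FPKM in any of the 10 libraries. COX6B2, a testis form, was at 2.00 and 0.99 FPKM in untreated and treated KYSE180, at 2.30 and 0.22 in the vector control and knockdown libraries of that line, and at 0.30 or less in KYSE30 and KYSE450. It was not tested, because it did not reach 1 FPKM in enough libraries. NDUFA4, a complex IV subunit first assigned to complex I, stood at 199 FPKM in untreated KYSE30, 471 in KYSE180 and 449 in KYSE450. UQCRHL, a near-identical copy of UQCRH, was listed at 0.52 FPKM or less in the IFN-β experiment and at 4.48 to 6.04 in the knockdown experiment, and reads may be split between the copies differently in the 2 sets of tables.

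The mitochondrially encoded genes fell into 2 groups that have nothing between them. MT-CO1 and MT-CO2, core subunits of complex IV that carry its copper and heme centres, stood highest, at 5947 to 9657 FPKM and 5824 to 10412 FPKM over the 4 libraries. MT-ND1, MT-ND2, MT-ND3 and MT-ND5 of complex I and MT-CYB of complex III stood between 970 and 2050 FPKM, and MT-ND6, the 1 member on the other strand, between 358 and 716. The remaining 5, MT-ND4, MT-ND4L, MT-ATP6, MT-ATP8 and MT-CO3, were listed at 0.233 FPKM or less in all 4 libraries. In the GENCODE annotation these 5, and none of the 8 abundant ones, overlap a neighbour on the same strand: MT-ATP8 and MT-ATP6 share 46 bases, MT-ATP6 and MT-CO3 share 1 base, and MT-ND4L and MT-ND4 share 7 bases. The low values of these 5 genes were therefore not read as their RNA level, and no comparison was made on them.

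Many nuclear members share short promoter motifs, which the choice by name did not use. The factors NRF1, the ETS factor GABP and YY1 are known to act at genes of mitochondrial proteins. RefSeq promoter windows (GRCh38.p14, 250 bases before to 50 after the transcript start) were in the table for 67 of 85 nuclear members, 63 of them tested. A set of 3 motifs was searched on both strands as exact letters: an NRF1-type motif with 1 open base, the ETS motif CCGGAAGT, and a YY1 motif. The NRF1-type motif was in at least 1 window of 22.2% of the tested members and of 6.98% of all 27305 genes in the table. The ETS motif was in 17.5% and 4.95%, and the YY1 motif in 12.7% and 1.46%. Unlike the tested members, the genes of the table were not limited to expressed genes. The part of expression in these shares was not tested. At least 1 of the 3 was in 28 of 63 members (44.4%) against 12.3% of all genes. By complex, the NRF1-type motif was in 4 of 7 complex III genes, 2 of 3 complex II genes, 6 of 31 complex I genes and none of 11 complex IV genes. A match is a run of letters and not a measured binding site, and binding was not measured here.

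The promoters of 5 members on which the later comparisons turn are printed 5′ to 3′ on the coding strand, 250 bases before to 30 after the start, with motif matches in capitals. SDHA (chr5:218070-218349), the flavoprotein of complex II, holds 4 matches to the NRF1-type motif, all with the same letters, at positions −166, −117, −68 and −19 from its start. NDUFB4 (chr3:120596086-120596365), an accessory subunit of the membrane arm of complex I, holds 3, at −159, −63 and −8, the first of which reads the same on both strands. NDUFS7 (chr19:1383657-1383936), a core subunit that holds an iron-sulfur cluster, has the YY1 motif 17 bases after its start. SDHD (chr11:112086623-112086902), a membrane anchor of complex II, has an NRF1-type motif at −110 and an ETS motif at −78. ATP5G1 (chr17:48892537-48892816), 1 of 3 genes for subunit c of the ATP synthase ring, holds none of the 3. All 5 lie on the plus strand.
SDHA: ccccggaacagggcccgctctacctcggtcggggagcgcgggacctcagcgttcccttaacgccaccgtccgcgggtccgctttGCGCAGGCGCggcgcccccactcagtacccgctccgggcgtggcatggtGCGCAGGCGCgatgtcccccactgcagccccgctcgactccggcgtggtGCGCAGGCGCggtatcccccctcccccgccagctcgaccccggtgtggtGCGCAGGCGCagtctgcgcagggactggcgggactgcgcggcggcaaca
NDUFB4: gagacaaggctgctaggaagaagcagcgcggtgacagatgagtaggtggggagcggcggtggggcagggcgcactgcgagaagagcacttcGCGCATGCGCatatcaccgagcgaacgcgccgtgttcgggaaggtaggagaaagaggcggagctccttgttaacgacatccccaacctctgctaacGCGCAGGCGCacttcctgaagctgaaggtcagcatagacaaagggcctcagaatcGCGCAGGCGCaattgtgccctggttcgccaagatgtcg
NDUFS7: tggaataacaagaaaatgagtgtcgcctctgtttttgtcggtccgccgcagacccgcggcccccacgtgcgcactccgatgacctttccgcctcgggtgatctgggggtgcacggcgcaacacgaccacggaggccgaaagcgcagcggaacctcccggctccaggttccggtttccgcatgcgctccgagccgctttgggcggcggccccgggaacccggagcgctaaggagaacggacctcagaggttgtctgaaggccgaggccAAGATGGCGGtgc
SDHD: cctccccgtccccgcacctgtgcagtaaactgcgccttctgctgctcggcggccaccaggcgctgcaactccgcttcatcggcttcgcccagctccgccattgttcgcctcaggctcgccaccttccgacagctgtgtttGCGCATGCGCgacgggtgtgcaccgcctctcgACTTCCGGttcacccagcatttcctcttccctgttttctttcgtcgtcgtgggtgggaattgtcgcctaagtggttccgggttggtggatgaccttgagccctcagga
ATP5G1: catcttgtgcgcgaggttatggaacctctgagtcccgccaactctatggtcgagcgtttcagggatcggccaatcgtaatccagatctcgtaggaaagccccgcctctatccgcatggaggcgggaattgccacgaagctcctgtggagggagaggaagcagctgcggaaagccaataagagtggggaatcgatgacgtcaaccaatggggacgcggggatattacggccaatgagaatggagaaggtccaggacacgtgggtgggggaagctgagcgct

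The first comparison asked how the genes responded to IFN-β. None of the 75 tested members was called, where limma called 51 of 12428 genes (0.41%), all of them higher. A gene was called at a Benjamini-Hochberg adjusted p of 0.05 or less over all genes tested, from log2(FPKM + 1) after scaling each library by the median of its ratios to the other libraries, with the line as a block. Among the members 3 had an unadjusted p under 0.05 and 62 of 75 had a fitted log2 fold change below 0, with a median of −0.16 (−0.012 over all genes tested, of which 52.4% were below 0). All 8 complex III genes and 11 of 12 complex IV genes lay below 0, with medians of −0.21 in both, and 29 of 36 complex I genes did, with a median of −0.13. Of 14 complex V genes 11 did, with a median of −0.23.

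These low values came mainly from KYSE450. Within that line 68 of 75 members were lower after IFN-β, with a median log2 ratio of −0.45, against −0.030 over all genes tested and −0.18 over the 1842 named genes with a mean of 50 FPKM or more. In KYSE30, 54 of 75 (72%) were lower with a median of −0.082. Over all genes tested 52.7% were lower there, with a median of −0.012. Of the genes at 50 FPKM or more 64.0% were lower in KYSE30, with a median of −0.052. In KYSE180, 45 of 75 were higher with a median of 0.082, and the genes at 50 FPKM or more had a median of 0.086. Without KYSE450 the median over members was −0.018, with 36 of 75 above 0. The sign in KYSE450 also depends on the scaling: as deposited, its IFN-β library stood above its untreated library by a median of 0.41 over all genes and by 0.066 over the members. The members' median was below that of all genes on either scale. As deposited, the fitted median over the 3 lines was −0.0053, with 36 of 75 above 0, and that over all genes was 0.12.

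**Figure D2:**
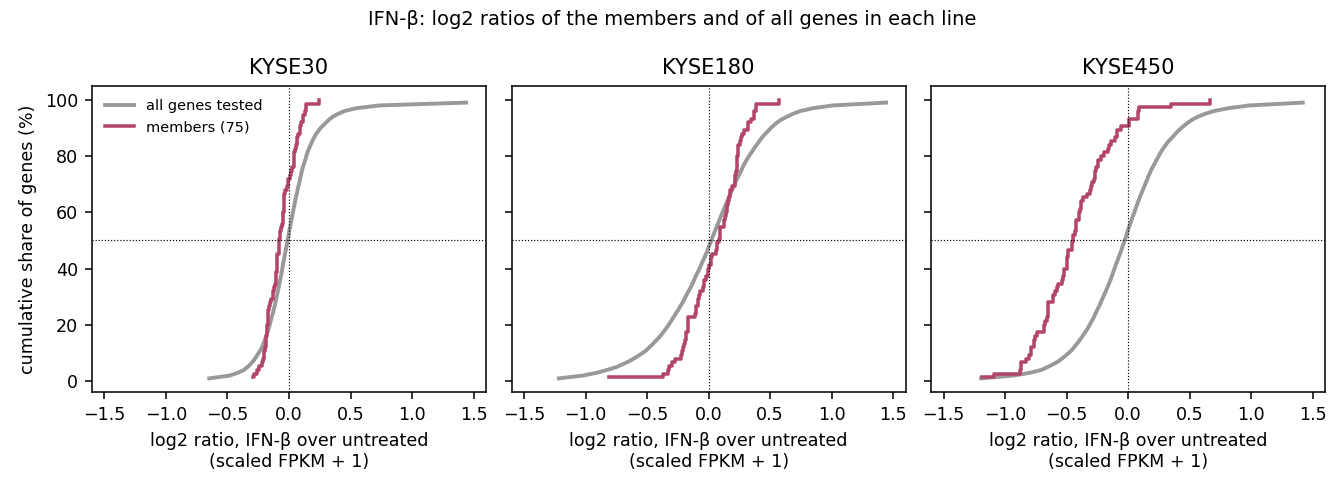
Cumulative share of genes (%) against the log2 ratio of IFN-β over untreated in each line, for the 75 tested members and for all 12428 genes tested, after scaling. The members lie to the left of all genes in KYSE450 (medians −0.45 and −0.030) and close to them in KYSE30 and KYSE180.

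Subunit c, whose ring turns as protons pass through ATP synthase, held the lowest member under IFN-β. In KYSE30, ATP5G2 had 236 FPKM untreated and 192 after IFN-β; in KYSE180 it had 181 and 99.2, and in KYSE450 177 and 149. It was lower in all 3 lines, but its log2 fold change of −0.62 ± 0.16 did not pass the test, with an adjusted p of 0.337 by limma. Here and below, ± gives the SE of limma, which is moderated with spread pooled over genes and is not the spread of the lines alone. ATP5G1, which encodes the same mature protein, was at 158 and 154 FPKM in KYSE30, 175 and 193 in KYSE180, and 157 and 164 in KYSE450. ATP5G3, the third gene, was at 122 and 108, 93.7 and 96.8, and 136 and 122 FPKM in the same order. The share of ATP5G2 in the summed FPKM of the 3 genes was 45.6% and 42.4% in KYSE30, 40.3% and 25.5% in KYSE180 and 37.6% and 34.2% in KYSE450.

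ATP5F1, subunit b of the ATP synthase stalk, was also lower in every line, at 267 and 219 FPKM in KYSE30, 144 and 108 in KYSE180 and 220 and 201 in KYSE450. Its log2 fold change was −0.43 ± 0.14 (limma, adjusted p = 0.473). NDUFA1, a small membrane subunit of complex I encoded on the X chromosome, had a log2 fold change of −0.51 ± 0.23 and was lower in all 3 lines, most in KYSE450, where it went from 384 to 241 FPKM. ATP5I, a small membrane subunit of complex V, had −0.45 ± 0.24 and went from 802 to 540 FPKM in KYSE450 and from 536 to 411 in KYSE180, but from 780 to 816 in KYSE30. NDUFC1, an accessory subunit of complex I, had −0.42 ± 0.17 and was lower in all 3 lines (adjusted p by limma of 0.530 for NDUFA1, 0.574 for ATP5I and 0.511 for NDUFC1).

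The highest values after IFN-β were small. COX4NB had a log2 fold change of 0.19 ± 0.15, SDHC 0.18 ± 0.18, NDUFA3 of complex I 0.14 ± 0.13 and ATP5D, the delta subunit of the ATP synthase head, 0.11 ± 0.12. SDHC went from 11.8 to 27.5 FPKM in KYSE450 but had 11.1 and 10.9 in KYSE30, 15.8 and 14.1 in KYSE180, so that without KYSE450 its value was −0.068. NDUFA3 was higher in all 3 lines, at 108 and 128, 146 and 150, and 124 and 189 FPKM. The limma adjusted p of these 4 genes lay between 0.685 and 0.766.

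No gene of the other pathway lists was called under IFN-β either: none of the tested assembly factors of complexes I to V (16, 4, 6, 19 and 3 genes), of 12 genes for the mobile electron carriers and coenzyme Q synthesis, of 13 regulators of mitochondrial gene expression, of 14 tricarboxylic acid cycle genes, of 12 general mitochondrial proteins and of 7 subunits or regulators of the complexes outside the name rule. SCO2, a copper chaperone for complex IV, had the largest positive value in these lists, 0.57 ± 0.13; it had 9.91 FPKM untreated and 14.3 treated in KYSE30, 24.4 and 41.9 in KYSE180, and 17.7 and 34.3 in KYSE450 (limma, adjusted p = 0.257). NUBPL, an iron-sulfur assembly factor of complex I, had −0.59 ± 0.13 (adjusted p = 0.254). ATP5S, a coupling factor outside the name rule, had −0.60 ± 0.15 (adjusted p = 0.349). PPRC1, a coactivator of the PGC-1 family, had 0.46 ± 0.16 (adjusted p = 0.486).

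The second comparison asked how the genes responded to knockdown of IRF1-AS. None of the 84 tested members was called, and limma called none of 12813 genes (0.0%), while 842 genes, 5 of them members, had an unadjusted p under 0.05. With 2 lines the fit had 1 residual degree of freedom. The members split evenly, 42 above and 42 below 0, with a median of −0.0032 (−0.012 over all genes tested). By complex, 10 of 12 nuclear complex IV genes lay below 0 with a median of −0.13, and 10 of 14 complex V genes lay above it with a median of 0.033.

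ATP5G1 had the largest value among the members and the smallest p. Vector control and knockdown had 42.1 and 92.9 FPKM in KYSE30, and 52.6 and 173 in KYSE180, and its 2 knockdown libraries stood above both vector controls. Its log2 fold change was 1.39 ± 0.23 (moderated SE), from log2 ratios of 1.07 in KYSE30 and 1.70 in KYSE180. The unadjusted p was 0.00149 and the adjusted p 0.591 by limma, so ATP5G1 did not pass. The other subunit c genes had fitted values of −0.30 ± 0.22 (ATP5G2) and −0.40 ± 0.29 (ATP5G3). ATP5G2 in KYSE30 was at 107 and 109 FPKM, in KYSE180 at 70.1 and 46.7, and ATP5G3 at 56.7 and 64.1 and at 67.6 and 35.1. The share of ATP5G1 in the summed FPKM of the 3 genes was therefore 20.5% and 35.0% in KYSE30, and 27.7% and 67.9% in KYSE180. The summed FPKM of the 3 went from 205 to 266 in KYSE30 and from 190.3 to 255 in KYSE180.

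SDHD was the member with the next smallest p. In KYSE30 it stood at 38.3 and 24.3 FPKM, in KYSE180 at 77.9 and 34.6, a log2 fold change of −0.92 ± 0.21 (limma, adjusted p = 0.678). The other complex II genes had fitted values between −0.025 (SDHA) and 0.074 (SDHC). SDHA had 53.3 and 54.7 FPKM in KYSE30 but 120.3 and 117 in KYSE180, and SDHC had 24.9 and 27.7, then 47.3 and 49.1. SDHB, which holds the iron-sulfur clusters, was at 84.6 and 97.7 and at 75.6 and 71.4 FPKM. NDUFA5, an accessory subunit of complex I, had the lowest fitted value, −0.94 ± 0.36, which came from KYSE180, where it went from 27.1 to 7.99 FPKM, while in KYSE30 it was at 10.6 and 9.18. NDUFB5, another accessory subunit, was lower in both lines, at 74.7 and 47.4 and at 159 and 115 FPKM, with −0.58 ± 0.19. NDUFB1 was higher in both, at 21.4 and 33.4 and at 56.8 and 74.1 FPKM, with 0.47 ± 0.19. NDUFA9, at 0.58 ± 0.30, went from 7.84 to 18.5 FPKM in KYSE30 and was at 14.3 and 15.1 in KYSE180, and NDUFB3, at 0.37 ± 0.20, was at 22.3 and 26.7 and at 17.5 and 25.8. None of these passed, with adjusted p between 0.743 and 0.809 by limma.

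The mitochondrially encoded genes went opposite ways in the 2 lines. In KYSE30 all 8 tested genes had a log2 ratio below 0, with a median of −0.25, and in KYSE180 all 8 lay above 0, with a median of 0.42. MT-CO2 had 7545 FPKM with the vector and 5824 with knockdown in KYSE30, against 6996 and 10412 in KYSE180. MT-CYB, the cytochrome b of complex III, stood at 1495 and 1307 and at 1395 and 2047 FPKM, and MT-ND1 at 1532 and 1385 and at 1451 and 2050. MT-ND6 had 716 and 358 FPKM in KYSE30, the largest ratio of the 8 there, but 585 and 641 in KYSE180. MT-ND2 in KYSE30 was at 1831 and 1878 FPKM, below 0 (−0.02) after scaling and above it (0.04) as deposited. Together the 8 genes held 6.47% and 5.38% of the summed FPKM of KYSE30, with 4.67% and 6.47% for KYSE180. With 1 library for each line and condition the difference between lines was not tested, and the genes share 1 genome and its polycistronic transcripts, so they are not independent. The fitted values over both lines lay between −0.46 (MT-ND6) and 0.28 (MT-ND2), and no adjusted p was under 0.842 by limma.

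**Figure D3:**
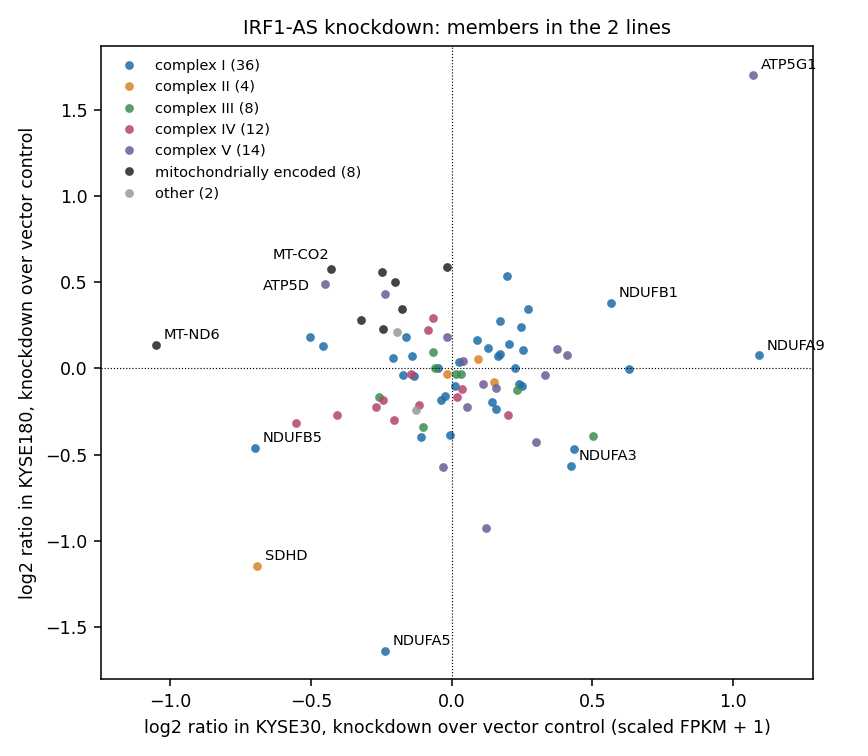
Log2 ratio of knockdown over vector control in KYSE30 (x axis) and KYSE180 (y axis) for the 84 tested members, after scaling. ATP5G1 is high in both lines and SDHD low in both, and the 8 mitochondrially encoded genes (black) lie below 0 in KYSE30 and above 0 in KYSE180.

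The other pathway lists held no called gene under knockdown. The largest values were those of COX20, an assembly factor of complex IV (0.80 ± 0.21), NDUFA4L2, a paralogue of NDUFA4 (−0.83 ± 0.24), IDH3G of the tricarboxylic acid cycle (0.59 ± 0.22) and ECSIT, an assembly factor of complex I (0.58 ± 0.22), with adjusted p between 0.720 and 0.747 by limma. TFAM, which packages mitochondrial DNA and starts its transcription, had 12.8 and 17.2 FPKM in KYSE30, 10.2 and 13.8 in KYSE180 (0.38 ± 0.19, adjusted p = 0.802). The interferon genes ISG15, IFIT1, IFI27 and IRF1 were all lower in the knockdown libraries without passing the test, with a median log2 fold change of −1.28. Their part in the members' values was not tested.

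The lines themselves differed far more than the treatments did. KYSE180 was compared with KYSE30 in both experiments, which share no library. In the IFN-β experiment 13 of 75 members were higher and 8 lower in KYSE180, by limma with treatment in the fit (45.7% of all genes were called, 21.9% higher and 23.8% lower). As deposited, 21 members were higher and 4 lower, where 24.2% of all genes were called higher and 14.4% lower. In the knockdown experiment 15 of 84 members were higher and 1 was lower (28.7% of all genes were called, 14.9% higher and 13.8% lower). The members were thus not called more often than other genes. As a group they had a median of −0.035 in the first experiment and 0.18 in the second, and the complex I genes 0.090 and 0.38. As deposited the medians over members were 0.19 and 0.26, where those over all genes were 0.17 and 0.078. These counts and medians rest on 2 libraries a line.

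A set of 9 members was called in both experiments in the same direction, and none was called in opposite directions. That is 42.9% of the members called in the first experiment and 60.0% of those called in the second, among the 74 tested in both. For all genes the shares were 40.0% and 75.4%. Of the 9, 8 were higher in KYSE180, among them the core complex I subunits NDUFS7 and NDUFS8, the accessory subunits NDUFS6, NDUFB1 and NDUFB4, the complex II flavoprotein SDHA, and ATP5J2, a membrane subunit of ATP synthase. The 1 lower gene was ATP5G2. Over the 74 members the log2 differences of the 2 experiments correlated at r = 0.777 (Spearman 0.774), and 54 of 74 (73.0%) had the same sign, as had 74.4% of all 10045 genes tested in both. The points are genes of the same 2 lines, and the value is a description.

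SDHA had the largest line difference in the first experiment among the members higher in KYSE180. It was at 66.1 and 58.0 FPKM in untreated and treated KYSE30 and at 171 and 173 in KYSE180, and at 53.3 and 54.7 in the vector control and knockdown libraries of KYSE30 and 120.3 and 117 in those of KYSE180. All KYSE180 libraries stood above all KYSE30 libraries of their experiment. The log2 difference was 1.24 ± 0.16 in the first experiment (limma, adjusted p = 0.00166) and 1.04 ± 0.18 in the second (adjusted p = 0.0134). NDUFS6, which is needed to complete the arm of complex I that binds NADH, was at 99.6 and 94.4 FPKM in KYSE30 against 232 and 234 in KYSE180, and at 41.0 and 66.5 against 141 and 139.6 (1.03 ± 0.16 and 1.33 ± 0.23, adjusted p = 0.00333 and 0.0133).

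NDUFS7 and NDUFS8, core subunits that hold iron-sulfur clusters, had differences of 1.11 ± 0.23 and 1.06 ± 0.17 in the IFN-β experiment and of 0.71 ± 0.19 and 0.82 ± 0.20 in the knockdown experiment. NDUFB4 had 0.86 ± 0.16 and 1.13 ± 0.18, NDUFB1 0.71 ± 0.22 and 1.17 ± 0.19, and ATP5J2 0.64 ± 0.20 and 1.09 ± 0.19. The adjusted p of these 5 genes lay between 0.00346 and 0.0432 by limma. ATP5G2 was at 236 and 192 FPKM in KYSE30 against 181 and 99.2 in KYSE180, and at 107 and 109 against 70.1 and 46.7, a log2 difference of −0.89 ± 0.19 and −0.98 ± 0.21 (adjusted p = 0.0113 and 0.0268). Without any filter on low values, 1 member was called in the knockdown experiment in place of 16.

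**Figure D4:**
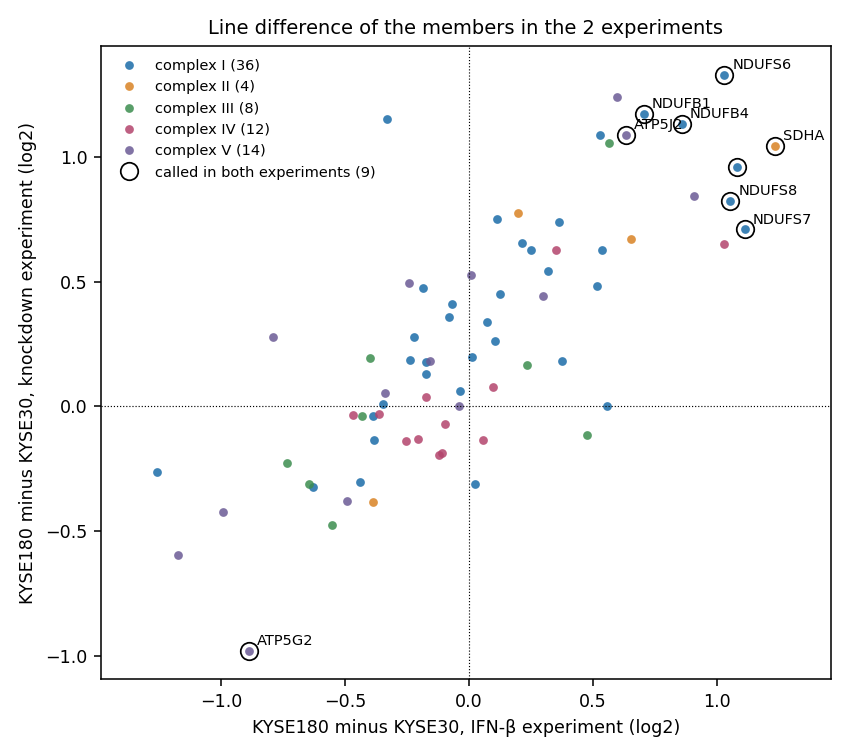
Log2 difference of KYSE180 minus KYSE30 in the IFN-β experiment (x axis) and in the knockdown experiment (y axis) for the 74 members tested in both. Circles mark the 9 members called in both, 8 at the upper right and ATP5G2 at the lower left.

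Other members were called in 1 experiment alone, which does not show that the experiments differed. In the IFN-β experiment these were NDUFA4 (1.03 ± 0.21), ATP5D (0.91 ± 0.14), SDHD, NDUFV3 and NDUFV1 among the higher, and NDUFB3 (−1.26 ± 0.20), ATP5F1 (−1.17 ± 0.17), ATP5I (−0.99 ± 0.29), ATP5J (−0.79 ± 0.16), UQCRQ, UQCR10 and UQCRC1 among the lower. In the knockdown experiment they were the readthrough ATP5J2-PTCD1 (1.57 ± 0.20), ATP5E (1.24 ± 0.20), NDUFB2 (1.15 ± 0.18), NDUFB5 (1.09 ± 0.19), UQCR11 (1.06 ± 0.18), SDHC and NDUFS5, all higher. ATP5J2-PTCD1 overlaps ATP5J2, and reads can be split between them. No nuclear complex IV gene was called in the knockdown experiment and 1 of 12, NDUFA4, in the other. The medians of the complex were −0.052 in the knockdown experiment and −0.11 in the other. None of the 8 mitochondrially encoded genes was called between the lines.

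The genes around the members called in both experiments were looked at next. For each nuclear member, the tested genes within 1 Mb on either side were taken from GENCODE positions (GRCh38). Around NDUFB1 (chr14:92116122-92121917) all 12 neighbours were above 0 in KYSE180 minus KYSE30 in the knockdown experiment and 8 of them were called higher. All 13 neighbours of SDHA (chr5:218241-256700) and all 11 of NDUFS6 (chr5:1801400-1816605), on the same chromosome arm, were above 0, with 6 and 4 called higher. Around ATP5J2 (chr7:99448475-99466331) 32 of 35 were above 0 and 20 were called higher. Around NDUFS8 (chr11:68030617-68036644) the counts were 26 and 13 of 33, and around NDUFB4 (chr3:120596309-120602500) 6 and 4 of 7. Around NDUFS7 (chr19:1383527-1395589) 45 of 62 were above 0, but 11 (17.7%) were called higher, close to the share over all genes. Over all genes tested 50.4% were above 0 and 14.9% were called higher. Around ATP5G2 (chr12:53632726-53677408), the member called lower, 14 of 37 neighbours were above 0, with a median of −0.12. Of these 37, 6 were called higher and 4 lower, where 13.8% of all genes were called lower.

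In the IFN-β experiment 48.5% of all genes tested were above 0. Around these members the counts were 10 of 10 for NDUFB1, 8 of 9 for SDHA, 9 of 11 for NDUFS6 and 25 of 29 for ATP5J2. They were 26 of 31 for NDUFS8, 5 of 7 for NDUFB4 and 42 of 47 for NDUFS7. Around ATP5G2 15 of 33 were above 0, with 8 called higher and 11 lower. Over the 68 members with 5 or more neighbours, the log2 line difference of the member and the median of its neighbours correlated at r = 0.692 (Spearman 0.707) in the knockdown experiment, and over 64 members at 0.617 (0.600) in the IFN-β experiment. Nearby members share neighbours and count among each other's, such as NDUFS8 and NDUFV1 on chromosome 11, so the points are not independent and no p is given. SDHC, on chromosome 1, was higher by 0.77 ± 0.18 in the knockdown experiment, where the median of its 22 neighbours was 0.78. NDUFS5 went against its surroundings, at 0.74 ± 0.18 with a median of −0.69 over 13 neighbours. DNA copy number was not measured here, and its part in these differences was not tested.

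**Figure D5:**
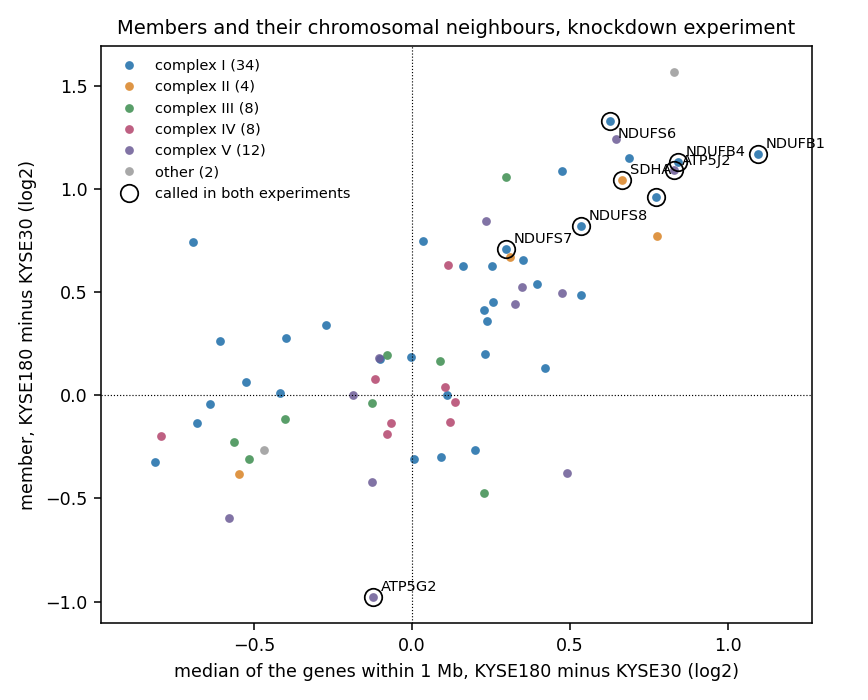
Log2 difference of KYSE180 minus KYSE30 of each nuclear member (y axis) against the median of the tested genes within 1 Mb of it (x axis), knockdown experiment, for the 68 members with 5 or more neighbours. The 8 circled members called higher in both experiments have neighbour medians above 0, and ATP5G2, at −0.98, has a median of −0.12.

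Among the other pathway genes, 4 assembly factors on chromosome 17 were lower in KYSE180. TTC19, an assembly factor of complex III, was at 84.4 and 80.0 FPKM in KYSE30 against 16.8 and 15.2 in KYSE180, and at 51.6 and 56.4 against 9.12 and 11.9 in the knockdown experiment (−2.51 ± 0.14 and −2.34 ± 0.20). ATPAF2, a chaperone of the ATP synthase head, had −2.21 ± 0.14 and −2.25 ± 0.21. SCO1, a copper chaperone of complex IV, had −1.56 ± 0.19 and −1.33 ± 0.19, and COX10, which makes its heme precursor, −1.01 ± 0.16 and −1.42 ± 0.19. All 4 were called in both experiments, with adjusted p of 0.00846 or less by limma, and start between positions 10672474 and 17977409. Other listed assembly factors further along chromosome 17 were not lower in both experiments. COX11 was at 30.1 FPKM in untreated KYSE30 and 42.0 in KYSE180, and at 12.4 and 19.6 in the vector controls. In the same order COA3 was at 59.9 and 85.8 and at 40.1 and 80.7, and NDUFAF8 at 141 and 103 and at 83.3 and 190. On the higher side, ECSIT (1.11 ± 0.13 and 1.24 ± 0.22), COA6 (1.19 ± 0.19 and 1.38 ± 0.19) and SCO2 (1.14 ± 0.16 and 1.05 ± 0.20) were called in both. HSPD1, the mitochondrial chaperonin, was also lower in KYSE180, with log2 differences of −2.55 ± 0.19 and −1.82 ± 0.19 (adjusted p = 0.000231 and 0.00369). Of 12 general mitochondrial proteins tested in the IFN-β experiment 6 were called lower and none higher, where 23.8% of all genes were called lower. In the knockdown experiment 2 of 13 were called lower, close to the 13.8% of all genes.

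KYSE450 was compared with the mean of the other 2 lines in the IFN-β experiment. There 22 of 75 members were higher and 3 lower by limma, where 48.4% of all genes were called (23.4% of all genes higher). The median over members was 0.27, against −0.017 over all genes tested. The called genes included 13 higher and 2 lower in complex I, and 5 higher and none lower in complex V. NDUFS6 stood at 308 and 414 FPKM in untreated and treated KYSE450, above all 4 other libraries (94.4 to 234), a log2 difference of 1.30 ± 0.14 (adjusted p = 0.000881). NDUFA5 stood at 103 and 113 FPKM against 45.6 to 53.0 in the other lines (1.20 ± 0.15), and ATP5B, the catalytic beta subunit of ATP synthase, at 1005 and 1259 against 488 to 609 (1.13 ± 0.16). ATP5L, NDUFA7 and NDUFC2 followed, at 1.05 ± 0.14, 1.03 ± 0.13 and 1.01 ± 0.17. The lower genes were NDUFB5 (−0.61 ± 0.19), COX6C (−0.55 ± 0.17) and NDUFS8 (−0.52 ± 0.14).

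Whether KYSE450 stood further above the other lines untreated or treated depended on the scaling. After scaling, untreated KYSE450 stood above untreated KYSE30 in 66 of 75 members, with a median log2 difference of 0.40, and above untreated KYSE180 in 63 of 75, with a median of 0.52. After IFN-β it stood above them in 40 and 41 of 75, with medians of 0.053 and 0.061. The 1842 genes at 50 FPKM or more had medians of 0.17 and 0.47 in the untreated libraries and 0.061 and 0.25 after IFN-β. Against the mean of the other lines the median was 0.50 in the untreated libraries and 0.029 in the treated ones. The untreated KYSE450 library had the smallest scaling factor, 0.812, and the treated one the largest, 1.16. As deposited the order turned: the median over members against the mean of the other lines was 0.17 in the untreated libraries and 0.24 in the treated ones, while that over all genes was −0.28 and 0.16. With 1 library per condition, this library and the line cannot be told apart. The lists of general mitochondrial proteins (9 of 12 higher), tricarboxylic acid cycle genes (8 of 14, with IDH3A at 1.13 ± 0.12) and regulators (7 of 13) were also called higher in KYSE450 by limma, and 0, 1 and 0 of them lower. Of 19 tested assembly factors of complex IV 7 were higher, among them LRPPRC, which stabilizes mitochondrial messenger RNAs (1.43 ± 0.16), and COX17, a copper chaperone (1.07 ± 0.13).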

How the data were processed

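The authors' deposited tables hold FPKM, per the file headers: a table of named genes and a table of long non-coding RNAs for each library of the IFN-β experiment, and 1 table for each library of the knockdown experiment. TopHat, HTSeq and hg38 are named in the submitters' processing notes, without versions or roles. The FPKM of the named-gene part sum to about the same total in each library of the IFN-β experiment, and the tables of the 2 experiments were normalized separately and fitted separately. FPKM carry no depth, so no counting interval can be given. The strand setting and the annotation are not stated in the sources used here. In the knockdown tables, copies of genes on alternate haplotypes were added to the primary gene.

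FPKM were scaled by median-of-ratios factors from the named genes, taken as log2(FPKM + 1), so that changes of low genes are understated, and fitted with line and treatment as terms in limma 3.58.1 (R 4.3.3, statmod 1.5.0, with its trend and robust settings). The Benjamini-Hochberg adjustment ran over all genes tested, at 0.05. The fit was tested on simulated data. Alternatives were the values as deposited, upper-quartile scaling, a pseudocount of 0.1, no filter or a mean of 5 FPKM, limma without trend and robust settings, no block, the named-gene part alone, and each line left out. Same-numbered replicates come from the same cell line, which pairs them. The deviations of a line's libraries correlated at 0.910, 0.841 and 0.876 in KYSE30, KYSE180 and KYSE450 in the IFN-β experiment. In the knockdown experiment the value is 0.842 for both lines, whose deviations mirror each other. With the line as a term, p-values of the treatments set a change against how unequally the lines responded, with 1 library per line and condition. limma takes that spread in part from the gene and in larger part from spread pooled over genes. In the IFN-β fit the gene's own spread had 2 degrees of freedom and the pooled spread 4.37, for 63 of 75 members. In the knockdown fit they had 1 and 4.19, for all 84 members. The p-values of the line differences rest on the same spread, and not on repeat cultures of a line. Nothing says that repeat cultures were pooled or grown.

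Members and lists were chosen with earlier results of these data known. Named members are those called in a comparison (up to 8 in each direction), or the 4 largest in each direction at a mean of 5 FPKM or more where fewer than 4 were called, the extremes of each complex, the paralogue groups and the mitochondrially encoded genes. NDUFC1, ATP5G3, COX11, COA3, NDUFAF8 and genes named for their neighbours were added after their values were seen. Other genes come from lists of assembly factors, carriers, regulators, tricarboxylic acid cycle genes and general mitochondrial proteins, up to 4 a list. Symbols follow the tables; positions are from GENCODE release 29 and promoters from RefSeq GRCh38.p14. Values of 1 gene are not reported here.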

Additional observations from a re-analysis of the deposited data

Results flagged for a closer look

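No group holds 4 samples, so no library could be tested as an outlier within its group. Members whose knockdown ratios pointed opposite ways in KYSE30 and KYSE180 by 0.4 or more on the log2 scale in each were singled out. The difference between the lines was not tested, since each ratio rests on 1 library pair. ATP5D had a log2 ratio of 0.49 in KYSE180 and −0.45 in KYSE30, and MT-CO2 had 0.58 and −0.43. NDUFA3 had 0.42 in KYSE30 and −0.57 in KYSE180, and NDUFB9 had 0.43 and −0.47. The 8 tested mitochondrially encoded genes had a median of 0.42 in KYSE180 and −0.25 in KYSE30. No member met the same condition between lines under IFN-β.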

How the results depend on the processing

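The counts of 0 called members under IFN-β and under knockdown were also 0 in every alternative that gave a test, including the fits without the replicate block, in which 0 members were called in each and 13 and 0 of all genes (against 51 and 0 with it). Leaving out 1 line at a time, the IFN-β count stayed at 0 and the median over members ran from −0.26 to −0.018, and the knockdown median, with 1 pair left and no test, ran from −0.027 to 0.016. The knockdown median was 0.022 on the values as deposited and 0.0050 with upper-quartile scaling. For KYSE180 minus KYSE30 in the IFN-β experiment the median over members was 0.19 as deposited, 0.045 with upper-quartile scaling and 0.031 in the treated libraries alone; in the knockdown experiment it was 0.26 as deposited and 0.11 in the knockdown libraries alone. The comparisons within single treatments, other than those of the untreated libraries, and the KYSE450 medians as deposited within a treatment were chosen after seeing the data. Over all genes, the IFN-β calls went from 51 higher to 193 higher and 44 lower as deposited, to 14 higher without a filter and to 72 higher and 5 lower in the named-gene part alone; without KYSE450 they were 32 higher. Without a filter on low values 1 member was called in the knockdown experiment, where 611 genes were called higher and 546 lower of 19266 tested, in place of 12813 tested. Without it 15 members were called in KYSE450, where 3030 genes were called higher and 3532 lower of 23647. Of the members called between lines, 36 values were checked, those with the largest differences in each direction of each comparison. Of these 36, 16 lost their call in at least 1 alternative and none reversed. The smaller called differences are not part of this count. Of 16 named values of members under the treatments, SDHC under IFN-β reversed, to −0.068 without KYSE450. MT-ND6 under knockdown, fitted at −0.46, also changed sign with KYSE180 alone, where its log2 ratio was 0.14. FPKM without counts leave the precision of a single library unknown.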
